A study of Homo sapiens with 2 samples.

Results

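Mitotic kinases are the enzymes that drive a cell into and through division, and 8 of their genes were examined for E2F1 binding: CDK1, PLK1, AURKA, AURKB, BUB1, BUB1B, TTK and NEK2. The genes were chosen by name, with earlier results of these data known, so their high ranks are given as a description. A peak was assigned to a gene when it overlapped the 2 kb on either side of that gene's transcription start site (TSS), given in hg19 coordinates. This found 8 peaks, 1 for each gene, among the 28734 peaks of an E2F1 chromatin immunoprecipitation and sequencing (ChIP-seq) library. The library came from LNCaP-abl, prostate cancer cells derived from LNCaP that grow without androgen and stand in for castration-resistant disease. Their passage was between 61 and 64. They were kept in charcoal-stripped serum, with 3 days in medium lacking androgen before collection. The immunoprecipitation used a pair of E2F1 antibodies. The series also has an input sample from the same cells without antibody, for which no values were analysed here. There was 1 library and no replicate, so no value below carries an error between replicates and no difference was tested. Read depth is unknown, because the list gives positions and scores but no counts.

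E2F1 is a transcription factor best known for switching on genes of S-phase entry and DNA replication, under the control of the RB protein. Genes of G2 and mitosis are classically held down in resting cells by the DREAM complex, which contains other E2F family members and reads an element called the CHR. They are then activated late in the cycle by B-MYB and FOXM1, often together with NF-Y at CCAAT boxes. Most of the kinases described here are textbook examples of such late genes.

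Every one of the 8 gene starts lay inside an E2F1 peak, and the peaks were among the strongest of the list. The score deposited for each peak was taken as higher for stronger peaks. Neither a header nor the labels name its scale, so it served only to rank peaks within the list. The median score of the 8 peaks was 274, against 23.5 over all peaks. Their median percentile, the share of all peaks scoring at or below, was 99.78. All 8 were in the top 10% of peaks, which begins at a score of 110, and 6 were in the top 1%, which begins at 229. BUB1 lay just under that upper limit and AURKA well under it. For background, 4.00% of all positions on chromosomes 1 to 22 and X had a peak within 2 kb (4.61% on the 8 chromosomes that hold these genes), 0.468% had a top 10% peak and 0.0471% a top 1% peak. Only 0.497% of positions lay inside a peak. Those shares are over positions between the first and the last peak of each chromosome, not over gene starts. How often any gene start holds a peak was not analysed here, so the count of 8 is not shown to be particular to mitotic kinases.

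Among the kinases of mitotic entry and the centrosome cycle, PLK1 and NEK2 were 2nd and 3rd of the 8 by score and CDK1 was 5th. CDK1 is the cyclin-dependent kinase that triggers entry into mitosis with cyclin B. Its peak lay on chromosome 10 from 62537755 to 62538526 (all peak and TSS coordinates are hg19 and 1-based). It scored 265, rank 90 of the list and the 99.69th percentile, and covered the TSS at 62538211. PLK1, the polo-like kinase that acts in centrosome maturation, spindle assembly and cytokinesis, had a peak on chromosome 16 from 23689796 to 23690553 around the TSS at 23690201. This peak scored 294, rank 19, at the 99.94th percentile. It was the highest-scoring of the 1184 peaks on chromosome 16. NEK2, a kinase that helps the centrosomes come apart, had a peak on chromosome 1 from 211848553 to 211849446, over the TSS at 211848972. It scored 285, rank 35 and the 99.88th percentile, and was 7th among 2962 peaks of its chromosome.

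Of the Aurora kinases, AURKB was 4th of the 8 by score and AURKA last. AURKB, the catalytic part of the chromosomal passenger complex, which corrects faulty attachments of chromosomes to the spindle, had a peak on chromosome 17 from 8113599 to 8114484 with the TSS at 8113883. It scored 282, rank 39 and the 99.87th percentile, and was 2nd of 1624 peaks on chromosome 17. AURKA, which acts at centrosomes and spindle poles, had a peak on chromosome 20 from 54966942 to 54967917 with the TSS at 54967351. It scored 129, rank 1986, at the 93.09th percentile. The score of AURKB was 2.18 times that of AURKA, and 1670 peaks of the list lay between AURKA and the next member, BUB1. AURKA thus stood apart as the lowest of the 8, although still in the top 10% of peaks. With 1 library, the spread that a repeat would give is not known.

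The spindle checkpoint kinases, which delay anaphase until chromosomes are attached, held both the highest score and the lowest but for AURKA. BUB1B, which encodes BUBR1, a part of the mitotic checkpoint complex, had the strongest peak of the 8. It lay on chromosome 15 from 40452927 to 40453540 over the TSS at 40453210, scored 297 and ranked 16 of all peaks, at the 99.95th percentile. None of the 984 peaks on chromosome 15 scored higher. BUB1, the related kinase that recruits checkpoint proteins to kinetochores, had a peak on chromosome 2 from 111435255 to 111436025, with the TSS at 111435684. It scored 224, rank 315 and the 98.91st percentile, so that BUB1B scored 1.33 times as high. TTK, also called MPS1, the kinase at the top of the checkpoint, had a peak on chromosome 6 from 80713919 to 80714687 over the TSS at 80714322. It scored 247, rank 184 and the 99.36th percentile.

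In order of score the genes were BUB1B, PLK1, NEK2, AURKB, CDK1, TTK, BUB1 and AURKA. The first 7 spanned a range of 1.33 times from highest to lowest score, and all 8 a range of 2.29 times. Whether neighbours in this order would keep their places in a repeat cannot be said from 1 library. BUB1B and PLK1, 3 ranks apart, were nearly level, as were NEK2 and AURKB, 4 ranks apart.

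The peaks sat on the gene starts rather than beside them. The midpoint of the peak was between 19.0 and 158.5 bp from the TSS, with a median of 35.8 bp. It was nearest at TTK, and 23.5 bp away at BUB1B, 26.5 bp at PLK1 and 27.5 bp at NEK2. At BUB1 the distance was 44.0 bp, at CDK1 70.5 bp and at AURKA 78.5 bp. AURKB had the peak that was farthest off centre, with its midpoint 158.5 bp upstream of the TSS. Of the 6 genes with a strand in the RefSeq promoter table, CDK1, PLK1, AURKB and NEK2 had the midpoint upstream, and BUB1 and BUB1B downstream. The list gives no summits, so a midpoint is only the centre of the called stretch.

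**Figure D1:**
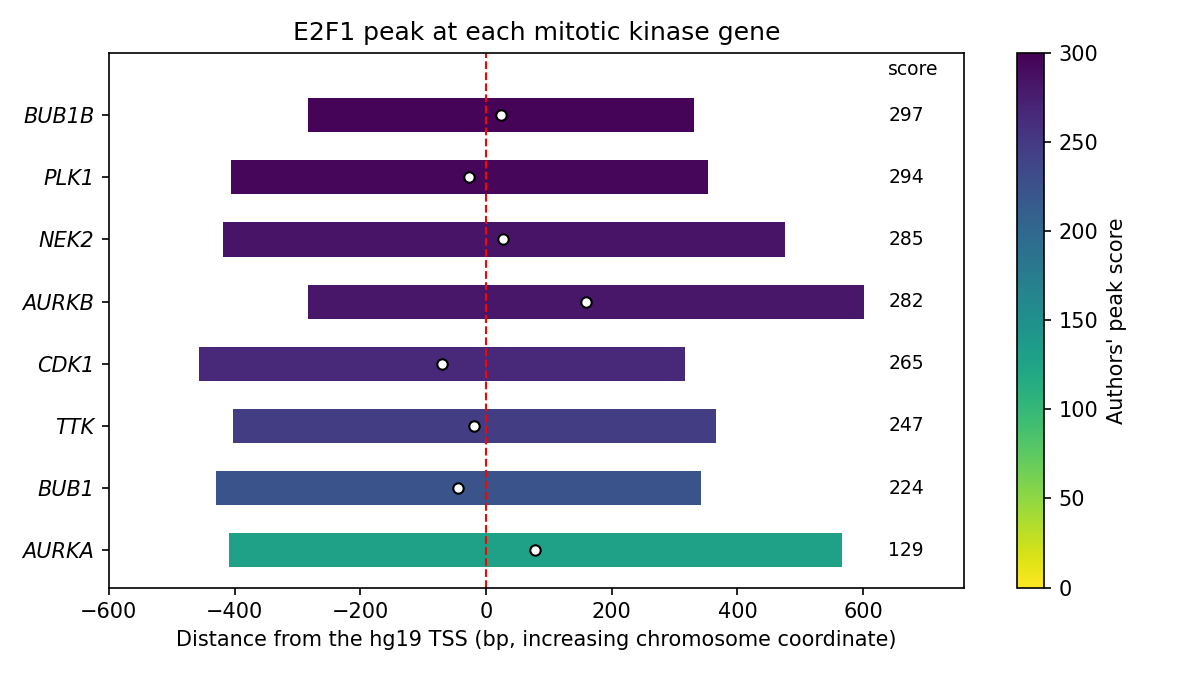
Extent of the E2F1 peak at each gene (bars, 1 library), plotted as distance in bp from the hg19 TSS (dashed line) in the direction of increasing chromosome coordinate, with white circles at the midpoints and colour for the authors' score. All 8 bars cross the TSS, and the score falls from 297 at BUB1B to 129 at AURKA.

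The peaks were wider than most, as strong peaks of this list are. Their widths ran from 614 bp at BUB1B to 976 bp at AURKA with a median of 772 bp, against 418 bp over all peaks and 780 bp in the top 1%. The highest-scoring member was therefore the narrowest and the lowest-scoring the widest. Score and width come from the same peak calls, so each peak was also ranked among the 2873 peaks most like it in width, after division of the list into 10 equal bins by width. The percentile there was 99.90 for BUB1B, 99.86 for PLK1, 99.58 for NEK2, 99.48 for AURKB and 98.57 for CDK1. It was 97.11 for TTK and 95.61 for BUB1. AURKA changed most, from the 93.09th percentile of all peaks to the 81.45th in its bin, that of the widest peaks, where the median score was 74.0.

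**Figure D2:**
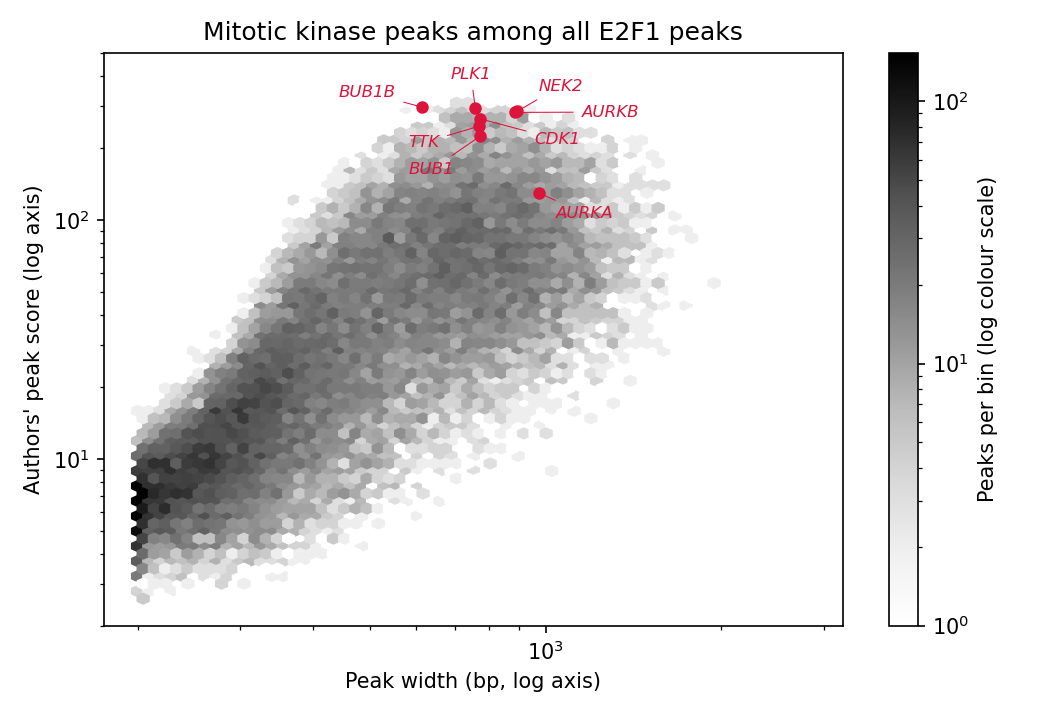
Score against width in bp (both log axes) for all 28734 peaks, shaded by the number of peaks per bin, with the peaks at the 8 genes in red. Of these, 7 score from 224 to 297, above most peaks of their width, and AURKA lies lower, at 129 and 976 bp.

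The regions around the peaks varied in how crowded they were. No gene had another peak within 5 kb of its TSS or of the midpoint of its peak, but the latter was also true of 73.6% of all peaks and 82.6% of those in the top 10%. The nearest peaks beyond the 2 kb limit began 5.20 kb away at NEK2 (score 17.1), 5.47 kb at BUB1B (7.53) and 9.67 kb at AURKB (19.6). At CDK1 that distance was 29.6 kb (17.5), at AURKA 33.1 kb (51.3), at BUB1 36.8 kb (9.47), at PLK1 37.3 kb (176) and at TTK 55.1 kb (5.995). At 6 genes this nearest other peak scored below the median of the list. At AURKA it was at the 70.21st percentile. At PLK1, where it lay on chromosome 16 from 23652294 to 23652867, it was itself at the 97.11th percentile.

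Counted by midpoints within 100 kb on either side, AURKB lay among 25 other peaks and TTK beside 1. BUB1B had 9, NEK2 5, BUB1 4, PLK1 3, and CDK1 and AURKA 2 each. The median over the 8 was 3.5, against 3 over all peaks (quartiles 2 and 6), so AURKB and BUB1B were the members in crowded regions. The peak at the gene start was the highest-scoring within 100 kb at all 8 genes, which was true of 31.2% of all peaks, 76.8% of those in the top 10%, where all 8 belong, and 96.9% of those in the top 1%. The margin differed. At TTK the next highest score within 100 kb was 5.995 and at BUB1 37.7. At NEK2 it was 94.4, at BUB1B 128 and at CDK1 129. At AURKB it was 171 and at PLK1 176, and the peak at the start scored 1.65 and 1.67 times as high. AURKA had the smallest margin, with 99.7 for the next peak, a ratio of 1.30.

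Where the chromosome held a peak with a higher score, the nearest lay megabases away. It was 2.00 Mb away at AURKA, 4.42 Mb at CDK1, 9.54 Mb at NEK2, 14.4 Mb at BUB1, 17.0 Mb at TTK and 26.1 Mb at AURKB. At PLK1 and BUB1B there was none on the chromosome. For background, the median of this distance was 5.05 Mb over the top 1% peaks that had a higher-scoring peak on their chromosome. Megabase distances are thus usual for peaks of such rank. BUB1 and AURKA lie outside the top 1%.

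**Figure D3:**
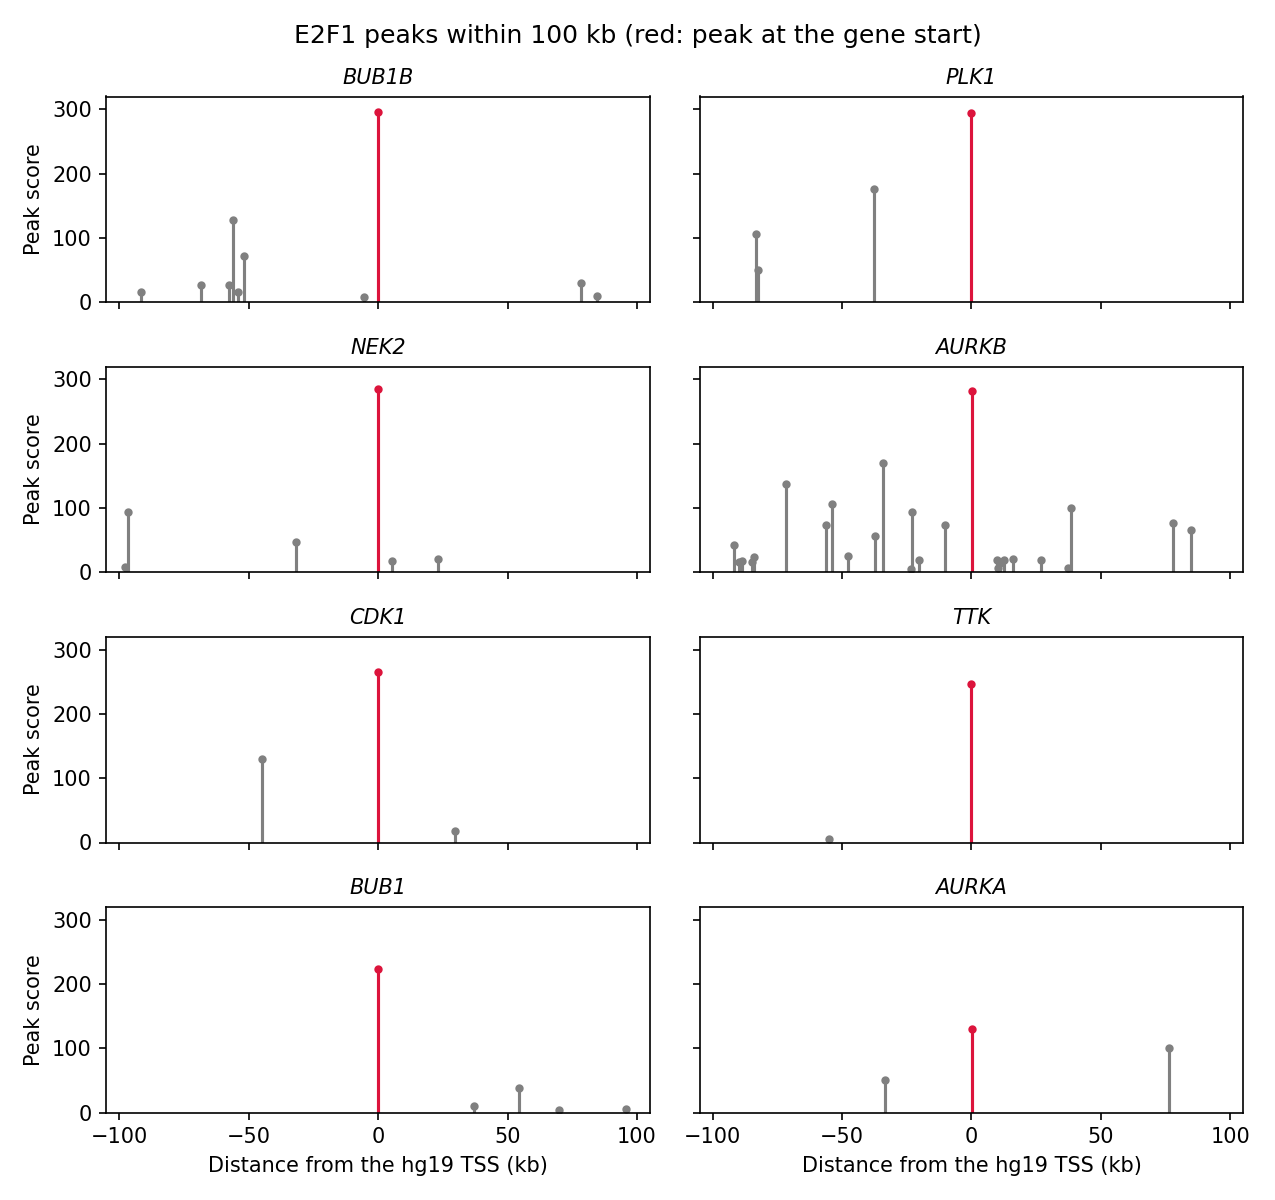
Peaks with a midpoint within 100 kb of the peak at each gene start, by distance from the hg19 TSS in kb (x) and authors' score (y), with the peak at the start in red and all others in grey. The red peak is the highest in all 8 panels, from 297 at BUB1B to 129 at AURKA, and AURKB has 25 grey peaks while TTK has 1.

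Several of these gene starts have a close neighbour. In the RefSeq gene table of GRCh38.p14, used only for which genes adjoin, DCTN5 lies within 2 kb of the start of PLK1. The noncoding NEK2-DT and LOC105373554 lie within 2 kb of the starts of NEK2 and BUB1. AURKA has CSTF1 within 2 kb of its end at higher coordinates and FAM210B within 2 kb of its end at lower coordinates. No other gene lay within 2 kb of either end of CDK1, AURKB or TTK. BUB1B overlaps LOC107984763 and the readthrough gene BUB1B-PAK6, and the extents the table gives for both lie more than 2 kb from the start of BUB1B. From a peak list, a shared peak cannot be divided between neighbours.

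Sequences of the gene starts show which letters known from cell cycle promoters are there. RefSeq promoter windows (GRCh38.p14, 250 bases before to 50 after a start) were at hand for 6 of the 8 genes: CDK1, PLK1, AURKB, BUB1, BUB1B and NEK2. CDK1 and AURKB have 2 windows each. The windows were matched to genes by symbol and not placed on the hg19 peaks. Shown 5′ to 3′ are the 250 bases before the start of the 5 genes whose window held an E2F core (for CDK1, the start farthest upstream). Capitals mark E2F motifs or cores, CHR-type letters (TTTGAA, or else TTTAAA) and CCAAT boxes, on either strand. They lie at chr15:40160819-40161068 on the plus strand for BUB1B, at chr16:23678639-23678888 (plus) for PLK1 and at chr1:211675622-211675871 (minus) for NEK2. Those of CDK1 and BUB1 are at chr10:60778081-60778330 (plus) and chr2:110678064-110678313 (minus).
BUB1B: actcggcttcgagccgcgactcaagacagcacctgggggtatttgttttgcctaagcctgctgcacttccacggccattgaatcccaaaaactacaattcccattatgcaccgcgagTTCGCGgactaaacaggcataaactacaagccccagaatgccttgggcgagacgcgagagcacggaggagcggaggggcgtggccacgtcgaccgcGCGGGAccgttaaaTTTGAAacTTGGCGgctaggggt
PLK1: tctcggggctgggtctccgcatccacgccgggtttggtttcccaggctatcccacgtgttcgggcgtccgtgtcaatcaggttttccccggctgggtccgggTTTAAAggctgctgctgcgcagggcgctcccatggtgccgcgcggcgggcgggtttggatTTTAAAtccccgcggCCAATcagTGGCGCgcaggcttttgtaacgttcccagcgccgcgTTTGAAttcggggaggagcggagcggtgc
NEK2: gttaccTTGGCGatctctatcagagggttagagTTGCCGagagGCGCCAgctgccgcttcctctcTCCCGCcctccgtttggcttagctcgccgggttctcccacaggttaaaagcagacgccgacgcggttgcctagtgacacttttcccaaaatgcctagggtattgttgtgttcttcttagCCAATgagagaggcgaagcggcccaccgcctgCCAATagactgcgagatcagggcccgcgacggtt
CDK1: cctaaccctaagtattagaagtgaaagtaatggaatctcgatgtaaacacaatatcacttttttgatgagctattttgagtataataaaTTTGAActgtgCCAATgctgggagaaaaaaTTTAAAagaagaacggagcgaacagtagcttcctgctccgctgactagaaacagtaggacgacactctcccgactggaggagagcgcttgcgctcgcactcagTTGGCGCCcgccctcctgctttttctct
BUB1: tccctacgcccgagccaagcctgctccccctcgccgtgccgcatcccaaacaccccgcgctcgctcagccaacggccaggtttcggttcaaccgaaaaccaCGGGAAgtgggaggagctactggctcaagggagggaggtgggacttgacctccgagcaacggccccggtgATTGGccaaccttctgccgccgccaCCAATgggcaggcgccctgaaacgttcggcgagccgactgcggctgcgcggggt
Full E2F motifs were searched for in the same windows. The 8-letter forms searched were TTTCCCGC, TTTGGCGC, TTTCGCGC, TTTGCCGC, TTCCCGCC and TTGGCGCC, on both strands. Of the 6 genes, 1 held any of them, CDK1, against 7.50% of the 27303 genes in the table. With only 6 genes, this count shows neither a lack nor an excess. CDK1 held a pair, TTGGCGCC beginning 28 bases before the upstream start and TTTCGCGC after that start and 128 bases before the downstream one. The latter is shown with its surroundings (chr10:60778338-60778367, plus strand):
CDK1 E2F site: ctttcctctttcTTTCGCGCtctagccacc

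Shorter E2F cores were found in 5 of the 6 genes, but they are common. Of 6 cores searched on either strand, TTCCCG was in CDK1 and BUB1, while TTGGCG was in CDK1, BUB1B and NEK2. The core TTCGCG was in CDK1 and BUB1B, and TTGCCG in NEK2 alone. The core TCCCGC was in BUB1B and NEK2, and the last, TGGCGC, in CDK1, PLK1 and NEK2. The cores overlap each other and the longer motifs, and 51.8% of genes in the table held at least 1 of them. BUB1B, with the highest score, held 3 cores, beginning 133, 37 and 15 bases before the start, and the last of them follows closely on a TTTGAA that begins 23 bases before it. PLK1, with the next score, held a single core, TGGCGC, 65 bases before the start. NEK2 held 4, all between 244 and 185 bases before the start, and BUB1 held 1 at 149. The AURKB windows held none, although its peak scored 282. The RefSeq model of AURKB reaches upstream of the start in both of its windows. Whether it also reaches beyond the windows was not checked, and the cores are absent only from the stretch searched.

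Elements of late cell cycle promoters were present in some of the genes. CHR-type letters occurred in CDK1, PLK1 and BUB1B, 3 of 6, against 27.9% of genes in the table. TTTGAA began 29 bases before the start of PLK1 and 69 and 13 bases before the downstream start of CDK1. A CCAAT box occurred in 5 of 6 genes, all but BUB1B, against 39.7% of genes. CDK1 carries both elements close together, as a CCAAT box on the minus strand (ATTGG) followed by TTTGAA (chr10:60778391-60778420, plus strand):
CDK1 CCAAT and CHR site: tgggctctgATTGGctgcTTTGAAagtcta
In PLK1 a CCAAT box 73 bases before the start precedes its TTTGAA 29 bases before the start. NEK2 and BUB1 held a pair of CCAAT boxes each and no CHR-type letters. GC boxes (GGGCGG, either strand) were in 4 of 6 genes, CDK1, PLK1, AURKB and NEK2, against 48.3% of genes. The CCAAT and GC box matches counted for AURKB come from its windows, and its RefSeq model extends upstream of the starts of these. These are matches of letters, not measured sites, and their relation to the peak score was not tested. BUB1B, with the highest score, had no CCAAT box and no full E2F motif, but held TTTGAA and E2F cores.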

How the data were processed

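The submitters' processing notes name hg19 as the build and MACS2 2.0.9, Bowtie and CASAVA 1.6.0 as tools. Their settings, the peak threshold and any use of the input were not given in the labels. The authors deposited, for each peak, its position and a score with no header. The score comes from 1 library, and its meaning as a peak caller's value is assumed. Starts were read as 0-based and printed 1-based. A peak of at least 1 bp overlap with 2 kb either side of a TSS was assigned to the gene, taking the highest score if several. All 8 genes are named. No genome or annotation of hg19 was used, so other genes of the pathway, fixed as a list, were not placed. Genes and lists were chosen with earlier results of these data known. Promoter sequences and gene neighbours are from RefSeq (GRCh38.p14), with 2 windows holding other letters left out. Python 3.11.15, pandas 2.3.3, numpy 2.4.6, scipy 1.17.1 and matplotlib 3.10.9 were used. Overlap, ranking and motif search were tested on simulated data. With 1 library, no test between groups was run. Alternatives changed the window, the set of peaks and the motifs.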

Additional observations from a re-analysis of the deposited data

How the results depend on the processing

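All 8 genes kept a peak when the window was the TSS itself, 500 bp, 1 kb, 5 kb or 10 kb. They also did when the midpoint had to be inside, and in the top 50% or top 10% of peaks. In the top 1%, an alternative chosen after seeing the data, 6 did. Most of these outcomes were fixed in advance. A TSS inside its peak settles every wider window, and midpoints within 158.5 bp of the TSS settle the midpoint rule. The top 10% count settles the top 50% count. The median percentile of 99.78 was 99.03 within bins of width and 99.87 without AURKA, which was also chosen afterwards. Under the 6 other alternatives it stayed within an exact 95% interval, which treats the median as a share of the listed peaks. That interval does not measure the spread over the 8 genes and says nothing about a repeat. Among the 6 alternatives, the nearest-peak, 1 kb and 5 kb settings picked the same peaks, so they could not change the median. For single genes, percentiles within the own chromosome ran from 92.69 at AURKA to 100 at PLK1 and BUB1B. Full E2F motifs were found in 1 gene and 6-letter cores in 5, since shorter letters match more often by construction. All 8 peaks remained the highest within 50, 500 and 1000 kb, distances chosen after seeing the data. This could not come out otherwise, since the nearest higher-scoring peak lay 2.00 Mb away at AURKA and farther at the others. The shares of all peaks at these distances were not computed. The hg19 annotation alternative was not run. No paired analysis was possible because peaks of a single library were used, and for the same reason no replicate could be left out. What depth limits is unknown.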
